A study of Capitella teleta with 12 samples.

Results

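Early embryos run on transcripts that the mother placed in the egg, and many of these are removed in waves while the embryo begins to transcribe its own genome. Removal usually starts with shortening of the poly(A) tail, followed by decay of the transcript. In spirally cleaving embryos such as those of annelids, the same early divisions set apart the quadrants and the micromere quartets. Here, 93 gene models of the annelid *Capitella teleta* were examined whose transcripts were well represented at the 8-cell stage and low at both the 16-cell and the 32-cell stage. They were chosen from 32415 gene models by measured values of these same embryos. The level of a stage was the summed counts of its embryos per 1000000 summed total counts (CPM, counts scaled to that total), and a gene model was kept with at least 20 CPM at the 8-cell stage, with at most 33.3% of that level at each later stage, and with its lowest 8-cell embryo above the highest embryo of both later stages. Of 5645 gene models with 20 CPM or more at the 8-cell stage, 130 met the conditions on the stage levels. The requirement on single embryos removed 37 of these and left 93 (1.65% of the 5645). The fall after the 8-cell stage is therefore what the choice was made on, and it is described below without a test.

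RNA was sequenced from single whole embryos by CEL-Seq, in which reverse transcription from the poly(A) tail adds an embryo barcode and a molecular identifier (UMI) to the 3′ end of each transcript, so that amplified copies of a molecule do not add to its count. The series held 4 embryos of 8 cells, 3 of 16 cells and 5 of 32 cells, with no treatment of the embryos named. They were taken from matings of a laboratory colony, whose adults were exposed to ambient light as a stress before mating. The study compared stages during and after the signalling activity of the organizer cell 2d. The 8-cell embryos had totals of 286145 to 451149 counts, the 16-cell embryos of 313356 to 491733 and the 32-cell embryos of 236321 to 408777, all sequenced on the same lane. Which brood each embryo came from is not given in the sources used here, so a difference between broods and one between stages cannot be told apart. No egg or earlier embryo was analysed here, so a maternal origin of these transcripts was not measured. In whole embryos, fewer cells with a transcript and less of it per cell cannot be told apart, and neither can loss of a transcript and loss of its poly(A) tail.

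For all 93 gene models a locus tag was found in the assembly's annotation. None of the 93 carried a gene symbol there (13 genes of the whole annotation do), so they are given by their gene model numbers and no function is assigned. None was among the TGF-β superfamily components that the study followed. Of 33 components listed, 32 were in the count table and 11 reached 20 CPM at the 8-cell stage. Among these, *TSG*, an extracellular modulator of BMP signalling, had the lowest remaining level at the 16-cell stage (53.0% of its 8-cell level, and 48.9% at the 32-cell stage). The highest was 171%, for *Activin Receptor 2*, a type II receptor of the superfamily.

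The summed level of the 93 gene models was 8524, 7988, 8598 and 7250 CPM in the 8-cell embryos, 1589, 1342 and 1523 CPM in the 16-cell embryos, and 1372, 1253, 1386, 1398 and 1087 CPM in the 32-cell embryos. Means were 8090 ± 622 CPM for the 8-cell embryos, 1485 ± 128 CPM for the 16-cell embryos and 1299 ± 132 CPM for the 32-cell embryos (SD, n = 4, 3 and 5). The 16-cell sum was thus 18.4% of the 8-cell sum and the 32-cell sum 16.1% of it. Nearly the whole difference lay between the 8- and the 16-cell stage, while the ranges of the 16- and 32-cell embryos overlapped. This timing is largely set by the choice, which kept only gene models already low at the 16-cell stage. The choice left out 128 gene models that were low only at the 32-cell stage. Together the transcripts of the 93 gene models held between 0.725% and 0.860% of all counts in an 8-cell embryo. Over all 5645 gene models at 20 CPM or more, the median remaining level was 97.3% in the 16-cell and 89.0% in the 32-cell embryos.

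**Figure D1:**
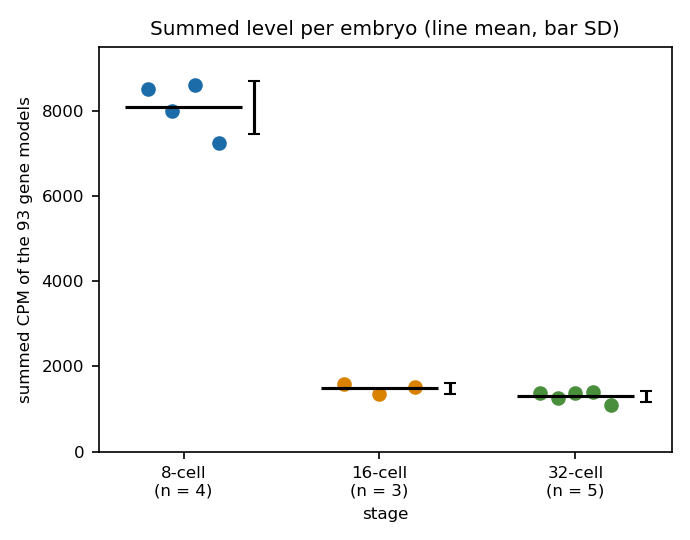
Summed CPM of the 93 gene models (vertical axis) in each embryo (points) at the 8-, 16- and 32-cell stage, with the mean (line) and SD (bar). The 4 embryos at the 8-cell stage lie between 7250 and 8598 CPM, and the 8 later embryos between 1087 and 1589 CPM, with the 16- and 32-cell embryos overlapping.

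Each of the 93 gene models was detected in each 8-cell embryo, which the choice requires. Between 79 and 82 of them had a count in a 16-cell embryo, and between 64 and 83 in a 32-cell embryo. The lowest of these numbers belonged to 32-cell replicate 5, which also had the fewest counts in total (236321). A count was present in every embryo of all stages for 43 gene models, and for the other 50 at least 1 later embryo had none. For a gene model without a count in a whole stage, levels of up to 2.44 CPM (16-cell) or 1.91 CPM (32-cell) remain possible, the equivalent of 3 counts over the stage. These limits and the counting intervals below cover counting error only.

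The levels at the 8-cell stage ranged from 20.4 to 414 CPM with a median of 47.3 CPM, below the median of 77.2 CPM of all gene models at 20 CPM or more. At least 100 CPM were reached by 22 of the 93, and 36 lay under 40 CPM. The 12 most abundant gene models held 43.8% of the summed 8-cell level. No count of these gene models in an embryo exceeded 193, far from the largest count in the table (1024).

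Gene model 147788 (positions 236476 to 238332 of its scaffold, which the annotation does not name) was the most abundant. It had 461, 390, 428 and 377 CPM in the 8-cell embryos, 3.19, 7.10 and 18.3 CPM in the 16-cell embryos, and 10.1, 24.5, 6.11, 6.69 and 4.23 CPM in the 32-cell embryos. Its 16-cell level was 2.56% of the 8-cell level (95% exact counting interval 1.35% to 4.41%), and its 32-cell level 2.77% (1.63% to 4.42%). It was the gene model with the largest loss in CPM. Gene model 224970 (positions 58354 to 61133) was next to it in depth of loss among the 12 most abundant, with 273, 253, 197 and 169 CPM in the 8-cell embryos, 6.38, 21.3 and 18.3 CPM in the 16-cell embryos, and 33.6, 9.79, 6.11, 26.8 and 16.9 CPM in the 32-cell embryos. Of its 8-cell level, 7.41% remained at the 16-cell stage and 8.11% by the 32-cell stage.

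Most of the 12 most abundant gene models kept a larger remainder. Gene model 171303 (positions 29386 to 30680) had 356, 317, 372 and 370 CPM in the 8-cell embryos, 79.8, 99.4 and 69.1 CPM in the 16-cell embryos, and 90.6, 85.6, 88.5, 86.9 and 71.9 CPM in the 32-cell embryos. The ranges of the 16- and 32-cell embryos overlapped, at 23.2% and 24.0% of the 8-cell level. Gene model 221405 (positions 241875 to 246581) gave a similar picture, with 189, 237, 257 and 198 CPM, then 38.3, 42.6 and 38.6 CPM, and then 36.9, 46.5, 45.8, 36.8 and 29.6 CPM, in the 8-, 16- and 32-cell embryos, so that 17.7% and 17.8% remained. The largest remainder of the 12 was that of gene model 219970 (positions 7445 to 10015), with 308, 405, 341 and 299 CPM in the 8-cell embryos, 115, 102 and 110 CPM in the 16-cell embryos, and 90.6, 115, 107, 53.5 and 97.3 CPM in the 32-cell embryos. Its remaining level at the 16-cell stage was 31.9% (26.1% to 38.7%), close to the limit of the choice.

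**Figure D2:**
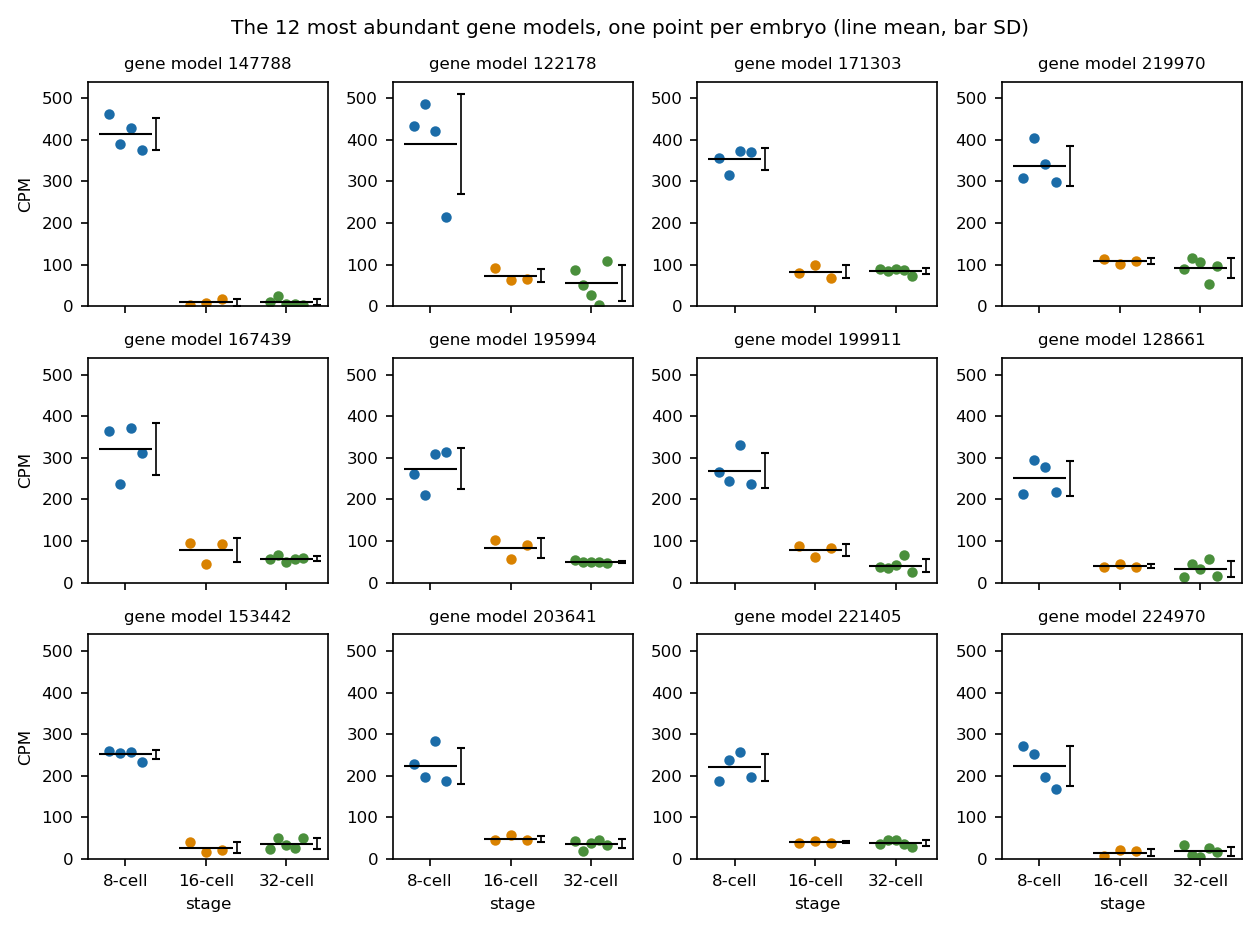
CPM (vertical axis, from 0) of the 12 most abundant of the 93 gene models in each embryo (points) by stage, with the mean (line) and SD (bar) of the stage. Gene model 147788 drops to 3.19 to 24.5 CPM in the 8 later embryos, whereas gene model 219970 keeps 53.5 to 115 CPM.

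The other abundant gene models lay between these. Gene model 167439 averaged 321 ± 61.9 CPM in the 8-cell embryos, 78.1 ± 28.7 CPM in the 16-cell embryos and 57.6 ± 6.16 CPM in the 32-cell embryos (SD, n = 4, 3 and 5). Gene model 203641 averaged 224 ± 42.9, 48.7 ± 6.99 and 36.7 ± 10.7 CPM, and gene model 128661, which spans only 425 bases, 251 ± 41.6, 39.96 ± 4.43 and 32.96 ± 18.3 CPM over the same embryos. Gene model 153442 had one of the most even levels at the 8-cell stage (259, 256, 257 and 234 CPM). It had 41.5, 16.6 and 22.4 CPM in the 16-cell embryos and 23.5, 51.4, 33.6, 26.8 and 50.8 CPM in the 32-cell embryos, with 10.03% and 14.9% of the 8-cell level remaining. In each of these 4 gene models the 16- and 32-cell embryos overlapped.

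The remaining level at the 16-cell stage ranged from 0% to 33.3% of the 8-cell level over the 93 gene models, with a median of 17.7% and quartiles of 11.03% and 25.6%. At most 5% remained for 16 gene models, between 5% and 10% for 5, between 10% and 20% for 34, and more for 38. At the 32-cell stage the median was 16.0% and the quartiles were 11.7% and 22.1%, with 13, 6, 43 and 31 gene models in these ranges. The upper end of each distribution is set by the choice. Many gene models had few counts, and the 95% counting interval of the 16-cell ratio ended under 33.3% for 43 of the 93, that of the 32-cell ratio for 53, and both for 38.

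**Figure D3:**
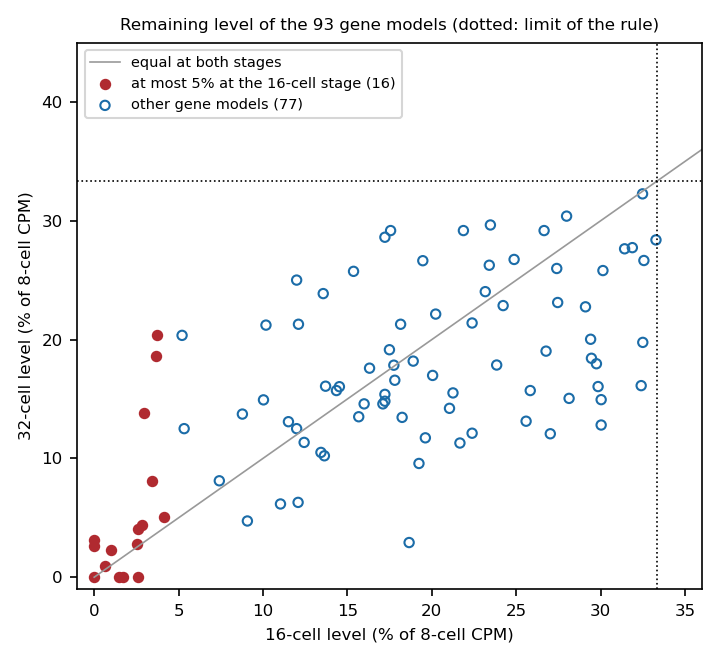
Level of each of the 93 gene models at the 32-cell stage (vertical axis) against the 16-cell stage (horizontal axis), both in percent of its 8-cell CPM. Filled points mark the 16 gene models with at most 5% at the 16-cell stage, of which 11 also have at most 5% at the 32-cell stage, dotted lines mark the limit of 33.3% that the choice sets, and the grey line marks equal levels.

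The 16 gene models with at most 5% remaining at the 16-cell stage had 1756 counts over the 4 embryos of 8 cells, 37 counts over the 3 of 16 cells and 79 counts over the 5 of 32 cells. At the 32-cell stage, which did not define this subset, at most 5% remained for 11 of the 16 and at most 10% for 13, with a median of 2.95%. Of the other 77 gene models, 2 had at most 5% at the 32-cell stage and their median was 17.6%. Both stages share the 8-cell level in their ratios, so the resemblance is given as a description. Their median 8-cell level was 47.3 CPM, compared with 48.8 CPM for the other 77.

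Among the 6 gene models with the lowest remaining level at the 16-cell stage, the most abundant was gene model 216316 (positions 4429 to 6057). It had 147, 158, 126 and 97.4 CPM in the 8-cell embryos, on 42, 52, 57 and 30 counts. At the 16-cell stage 1 count was found, in 1 of 3 embryos, and at the 32-cell stage 2 counts, both in 1 of 5 embryos. The stage levels were 132, 0.815 and 1.27 CPM. The 16-cell level was 162-fold lower than the 8-cell level, with a 95% exact counting interval of 28.7-fold to 6423-fold.

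The other 5 were less abundant at the 8-cell stage. Gene model 215532 (positions 797 to 2906) had 20, 22, 42 and 30 counts in the 8-cell embryos, 0, 0 and 1 in the 16-cell embryos and 1, 2, 0, 0 and 0 in the 32-cell embryos. Gene model 200719 (positions 131639 to 134571) had 17, 16, 28 and 14 counts in the 8-cell embryos and a single count among all 8 later embryos. Set against 3 counts over the stage, its 32-cell level was at least 28.6-fold lower, and the exact 95% counting limit, which also covers the error of the 8-cell counts, was 22.7-fold. Gene model 209987 (positions 119189 to 120463) was the only one of the 93 without a count in any later embryo, after 6, 18, 14 and 7 counts at the 8-cell stage. Set against 3 counts over each stage, the 16-cell level was at least 13.4-fold lower and the 32-cell level at least 17.1-fold lower, with exact 95% counting limits of 10.5-fold and 13.4-fold. Gene models 227289 and 193938 had no count in the 16-cell embryos and 1 count each in the 32-cell embryos, on only 33 and 28 counts before.

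The embryos of a stage varied among themselves. Among the 8-cell embryos, the lowest level was found in replicate 4 for 34 of the 93 gene models, in replicate 2 for 28, in replicate 1 for 21 and in replicate 3 for 10. The lowest embryo was not counted over all gene models, so whether this order is particular to the 93 was not measured. By a different measure, of all gene models at 20 CPM or more, 23.3% in replicate 2 and 24.3% in replicate 4 lay above all later embryos. In replicates 1 and 3 these shares were 27.8% and 30.8%. Replicate 3 had the highest total of the 4 (451149 counts) and replicate 1 the lowest (286145 counts). The coefficient of variation over the 8-cell embryos had a median of 27.6%, compared with 21.7% for all gene models at 20 CPM or more, whose levels were higher. The median chi-square per degree of freedom, which sets the spread against counting error, was 1.40 for the 93 gene models and 1.40 for all. The requirement on single embryos limits the spread of the 93, and their levels were lower. These medians therefore do not show whether the spread of the 93 was like that of all.

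The most even gene model was 111738, with 90.9, 82.2, 84.2 and 87.7 CPM in the 8-cell embryos. The least even was gene model 154562, with 10.5, 15.2, 73.1 and 77.9 CPM on 3, 5, 33 and 24 counts. Embryos with 10.5 and 15.2 CPM lay close to the later stages, with 0, 2.37 and 2.03 CPM in the 16-cell embryos and 3.36, 4.89, 0, 10.03 and 0 CPM in the 32-cell embryos. Gene model 122178 varied at the 8-cell stage, with 433, 487, 421 and 214 CPM, and again at the 32-cell stage, with 87.2, 51.4, 27.5, 3.34 and 110 CPM on 26, 21, 9, 1 and 26 counts. Its 16-cell embryos lay at 92.5, 63.9 and 65.1 CPM. In gene models 193938 and 219893, also among the most variable, 8-cell replicate 4 was the lowest, with 3 counts each.

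The values at the edge of the choice were as follows. Just inside the requirement on single embryos lay gene model 21005, with a lowest 8-cell embryo of 19.5 CPM and a highest later embryo of 18.9 CPM, and gene models 150351 (10.5 and 10.2 CPM) and 154562 (10.5 and 10.03 CPM). Just outside lay gene models 211787 (26.0 and 26.8 CPM) and 17853 (19.5 and 20.1 CPM). Gene model 210401 also failed it, because all of its 45 counts came from 8-cell replicate 2 and every other embryo of the 3 stages had none. For the limit of 33.3%, the nearest inside were gene models 166290 (33.3%), 104212 (32.6%) and 17914 (32.5%), and the nearest outside 46361 (33.6%), 40088 (34.1%) and 212984 (34.2%).

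Because the choice used all embryos, it was repeated without each embryo in turn, and the levels in the embryo left out were then read. Between 89 and 112 gene models were chosen each time. With an 8-cell embryo left out, its level lay above all later embryos for 91.3% to 95.8% of the gene models chosen without it, compared with 23.3% to 30.8% of all gene models at 20 CPM or more. With a 16-cell embryo left out, its level lay below all 8-cell embryos for 94.6% to 100% of them, compared with 25.1% to 30.1% of all. For the 32-cell embryos these shares were 96.8% to 100% and 34.8% to 45.1%. Fewer of the gene models met the limit of 33.3% in the left-out embryo: 64.7% to 81.2% for 8-cell embryos (1.79% to 2.27% of all), 68.8% to 84.3% for 16-cell embryos (3.90% to 5.16% of all) and 82.5% to 94.6% for 32-cell embryos (6.2% to 11.02% of all). The median level in the left-out embryo was 79.3% to 100% of the level of the other 8-cell embryos when it was an 8-cell embryo, 16.3% to 21.1% when it was a 16-cell embryo and 10.8% to 18.9% when it was a 32-cell embryo. The lowest of these values again came from 32-cell replicate 5. The left-out embryo was compared with embryos that the choice had used, whereas all gene models were under no such limit. The higher shares of the chosen gene models are therefore partly set by the choice. Each embryo is a single sample, so these shares carry no test.

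**Figure D4:**
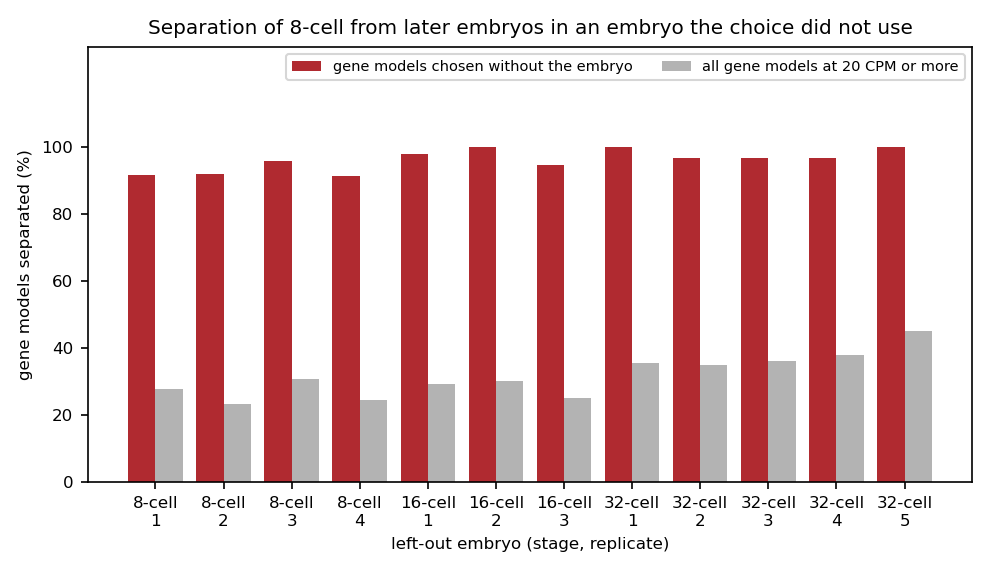
Share of gene models (vertical axis, percent) whose level in the left-out embryo (horizontal axis) lay above all later embryos, for 8-cell embryos, or below all 8-cell embryos, for later ones. Red bars show the gene models chosen without that embryo, at 91.3% or more in each of the 12 embryos, and grey bars all gene models with 20 CPM or more at the 8-cell stage, at 45.1% or less. The embryos compared with were used in the choice, which partly sets the red bars.

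Whether the transcripts changed further between the 16- and the 32-cell stage was tested in a single fit of the counts of all 12 embryos by the quasi-likelihood F test of edgeR, with Benjamini-Hochberg adjustment over 11854 gene models. The choice set a ceiling for both stages but no direction between them. That ceiling left out gene models that were low only at 16 cells (36) or only at 32 cells (128). Changes between these stages could thus be seen only within it. All 93 gene models passed the filter of 10 counts over the embryos. For 77 of them the 16- and 32-cell embryos alone held that many counts, and the other 16 passed only with their 8-cell counts. None was called at an adjusted p of 0.05, with 0 higher and 0 lower at the 32-cell stage, compared with 1.74% of all gene models tested called higher and 0.472% called lower. Among the 5645 gene models at 20 CPM or more at the 8-cell stage, from which the 93 were chosen, 0.478% were called higher and 0.797% lower. At an unadjusted p of 0.05, edgeR gave 4 of the 93, compared with 10.4% of all tested and 9.71% of the 5645, and DESeq2's Wald test gave 3 of the 93 (0 after adjustment). All 4 were among the 77 gene models with 10 or more counts at the later stages, a subset formed after the values were seen, and the other 16 had too few counts for their share to be read against all gene models. At these low levels, and under the ceiling of the choice, the counts of calls do not show that the gene models changed less than others. The median log2 fold change, 32-cell minus 16-cell, was -0.01 over the 93, with quartiles of -0.49 and 0.42, 0.00 over all gene models tested and -0.07 over the 5645. Within the 93, it was -0.08 over the 77 (quartiles -0.41 and 0.22). Over the other 16, which had few counts at the later stages, it was 0.55 (quartiles -0.97 and 1.22).

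A missed threshold does not show that the levels were equal. The 95% interval of the fold change excluded a change of 2-fold in either direction for 13 of the 92 gene models with an interval. All 13 were among the 77 gene models with 10 or more counts at the later stages. In these 77, the interval excluded a further 2-fold fall for 36 and a 2-fold rise for 40. Its median half-width on the log2 scale was 1.15 in the 77 and 1.28 over the 92. For those of the 77 outside the 13, a change of that size in one direction or the other was not excluded. The other 16 (15 with an interval) had too few counts at the later stages for their intervals to be read in this way.

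**Figure D5:**
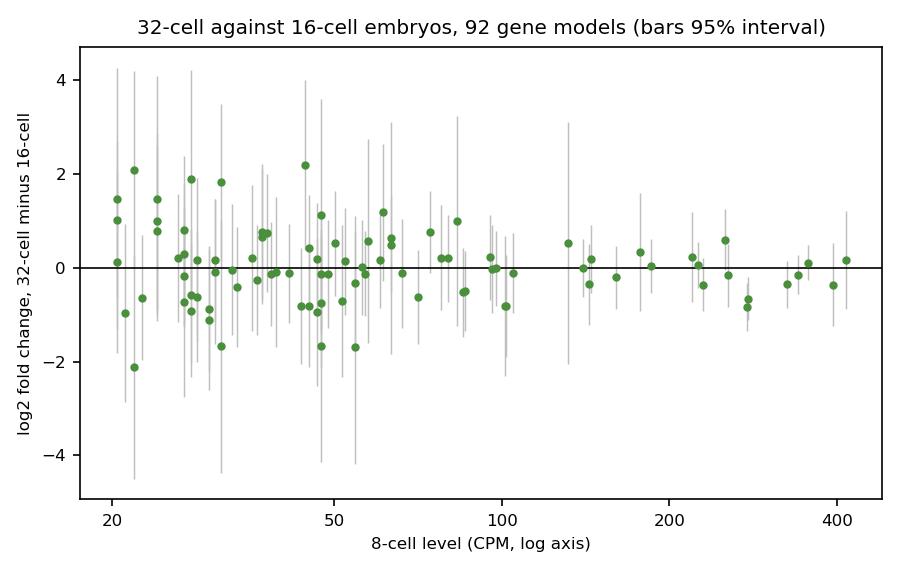
Log2 fold change, 32-cell minus 16-cell (vertical axis), with its 95% interval from edgeR, against the 8-cell level in CPM (horizontal log axis) for 92 gene models. The quartiles are -0.49 and 0.42, and intervals are wide for gene models with a low level.

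The 4 gene models at an unadjusted p of 0.05 were singled out after their values were seen. Gene model 199911 (positions 13094 to 14248) had 36.9, 34.2, 42.7, 66.9 and 25.4 CPM in the 32-cell embryos, against 89.4, 61.6 and 83.4 CPM in the 16-cell embryos. Only 32-cell replicate 4 reached into the range of the 16-cell embryos. In edgeR the log2 fold change was -0.83 with a standard error of 0.25 and an adjusted p of 0.0990. The 8-cell embryos had 266, 244, 330 and 237 CPM. Gene model 195994 (positions 73035 to 74186) had 53.7, 48.9, 48.8, 50.2 and 46.5 CPM in the 32-cell embryos, against 102, 56.8 and 91.5 CPM in the 16-cell embryos. The embryos of the later stages did not overlap, and the 8-cell embryos had 262, 210, 308 and 315 CPM. In edgeR the log2 fold change was -0.66 with a standard error of 0.22 and an adjusted p of 0.160. The call for gene model 199911 was made when 32-cell replicate 4 was left out (adjusted p = 0.0120 in edgeR) and when low counts were not filtered (adjusted p = 0.0415), over a range of 0.0120 to 0.362 in the settings tried. The call for gene model 195994 was made when 16-cell replicate 2 was left out (adjusted p = 0.0396 in edgeR), over a range of 0.0396 to 0.541.

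The other pair had more counts at the 32-cell stage. Gene model 210851 had 5, 1, 3, 4 and 0 counts in the 32-cell embryos, against 0, 1 and 1 counts in the 16-cell embryos. Its log2 fold change in edgeR was 2.20 with a standard error of 0.88 and an adjusted p of 0.301, and of 0.173 to 0.597 over the settings tried. Gene model 148737 had 3, 1, 3, 2 and 1 counts in the 32-cell embryos, against 1, 0 and 1 counts in the 16-cell embryos. Its log2 fold change in edgeR was 1.82 with a standard error of 0.81 and an adjusted p of 0.421, and of 0.296 to 0.833 over the settings tried. The range of the 32-cell embryos overlapped that of the 16-cell embryos in both. In both, the 8-cell embryos lay higher, with 18, 13, 20 and 10 counts for gene model 210851 and 7, 12, 14 and 10 counts for gene model 148737.

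Among all 5645 gene models at 20 CPM or more, a level of at most 33.3% was reached by 166 (2.94%) in the 16-cell embryos and by 258 (4.57%) in the 32-cell embryos. Both applied to 130, while 36 were that low only at 16 cells and 128 only at 32 cells. The 93 gene models are the part of the 130 in which single embryos did not overlap. The reversed rule, with at least 20 CPM at both later stages and an 8-cell level of at most 33.3% of each, with no overlap, found 153 gene models. It starts from a different set of gene models than the 5645, so the 153 and the 93 do not show whether rises or falls were more frequent.

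In the annotation, the 93 gene models spanned 231 to 10339 bases from start to end, introns included, with a median of 2221 bases. The 5604 annotated gene models at 20 CPM or more had a median span of 3135 bases, and 62 of the 93 were shorter than that. The difference was larger among the 30 of the 93 whose 8-cell level was above the median of these 5604 gene models (median span 1764 bases, compared with 3212 bases for all at these levels) than among the 63 with lower levels (2556 and 3066 bases). The 16 gene models with at most 5% remaining at the 16-cell stage had a median span of 1984 bases and the other 77 of 2267 bases. No test was run on the spans.

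The annotation lists gene models in their order along each scaffold, with scaffolds taken to end where the positions start again. None of the 93 lay directly beside another of them, and 2 pairs (174037 with 223203, and 93010 with 187205) had one other gene model between them. Of the 171 gene models that flank one of the 93, 41 had 20 CPM or more at the 8-cell stage. Their median level at the 16-cell stage was 100.6% of the 8-cell level. Of the 41, 1 had 33.3% or less, compared with 2.94% of all gene models at 20 CPM or more. It was gene model 210401, all of whose 45 counts came from 8-cell replicate 2. None of the 41 was among the 93, which make up 1.65% of all gene models at that level. In 8 of the 93 a flanking gene model overlapped the span, among them 171303, 203641 and 104212. Whether the counting used the strand is not given in the sources used here, so reads in the overlap may have been left out or assigned to either.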

How the data were processed

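Single *C. teleta* embryos were measured by CEL-Seq in 4 embryos of 8 cells, 3 of 16 cells and 5 of 32 cells, with stages and replicate numbers from the labels. The authors ran a CEL-Seq pipeline, with Bowtie2 (its version is not given in the sources used here) for mapping to the published genome assembly and htseq-count for UMIs, which were turned into transcript counts by binomial statistics. The counts deposited by the authors are whole and unscaled, for 32415 gene models. Their deposited CPM were the same counts scaled to 1000000 per embryo (largest relative deviation 4.84e-10). A table of the authors' own likelihood ratio test (fold changes and p-values) was not used. ERCC spike-ins were added by the methods, and the table has 0 ERCC rows, so levels are relative to the total. No columns of other samples were present (0).

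The gene models and gene lists were chosen with earlier results of these data known. Gene models with 10 or more counts over the 12 embryos were tested in R 4.3.3 with edgeR 4.0.16 (TMM scaling, quasi-likelihood F test, all embryos in 1 fit, no covariates, Benjamini-Hochberg, threshold 0.05). DESeq2 1.42.0 was an alternative. Standard errors were the size of the log2 fold change over the square root of F. Counting intervals are exact binomial at 95%, computed with scipy 1.17.1 in Python 3.11.15. The test was tested on simulated data. Replicates of a stage differed beyond sampling noise in all 19 pairs (chi-square per gene 1.81 to 3.02), and p-values measure only the spread between these embryos.

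Gene model numbers were matched to locus tags for 31968 gene models (98.6%). Product names, protein and promoter sequences were not used here, so lists of product names and protein motifs could not be applied. Named gene models were the 12 most abundant at the 8-cell stage, the 6 with the lowest 16-cell ratio, the 3 most and the 3 least variable at the 8-cell stage, the 3 nearest each side of a limit, and those past the threshold between the later stages (0).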

Additional observations from a re-analysis of the deposited data

Results flagged for a closer look

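For the summed level and the 23 named gene models, the 8-cell and the 32-cell embryos were searched for an embryo that lay apart from the rest of its stage. Sets with the same value in every embryo were skipped, which left 46 sets of values. Such an embryo was found in 6 sets. The usual chance rate of about 1 in 20 holds for normally distributed values and cannot be applied to the 3 sets below in which a lone embryo held every count. Gene model 147788 had 24.5 CPM in 32-cell replicate 2, on 10 counts, against 4.23 to 10.1 CPM in the other 32-cell embryos. Gene model 171303 had 71.9 CPM in 32-cell replicate 5, against 85.6 to 90.6 CPM in the others. Gene model 153442 had 234 CPM (233.8) in 8-cell replicate 4, against 256 to 259 CPM in the others. In the remaining cases a lone embryo held every count of its stage. Gene models 227289 and 193938 each had 1 count (2.45 CPM) in 32-cell replicate 2, and gene model 216316 had 2 counts (8.46 CPM) in 32-cell replicate 5.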

How the results depend on the processing

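The number of gene models chosen was 57 with an 8-cell minimum of 40 CPM, 60 with a ratio limit of 25% and 208 with a limit of 50%, as the construction of these limits implies. It lay within 1.5 times of 93 in the other settings, with 89 to 112 when an embryo was left out (85 to 93 shared with the 93), 94 with TMM scaling (93 shared), 126 with a minimum of 10 CPM, 130 without the requirement on single embryos and 91 (78 shared) when counts were thinned to the smallest total. The summed level at the 16-cell stage was 18.4% of the 8-cell sum, and 17.7% to 19.2% when an embryo was left out. The corresponding values at the 32-cell stage were 16.1%, and 15.5% to 16.7%. As a mean over gene models of log2(CPM + 1), which gives each gene model the same weight, they were 14.8% and 12.9%. Between the 16- and the 32-cell stage, 0 gene models were called higher under each setting tried, and 1 was called lower at a threshold of 0.1 and 1 without a filter on low counts (199911 in both). When a 16- or 32-cell embryo was left out, 0 to 1 were called lower. With filterByExpr only 59 of the 93 were tested. With the replicate number as a replicate block, 0 were called. Whether same-numbered embryos share more than a number is not given in the sources used here. Correlations of their deviations lay between -0.12 and 0.13. The median standard error of the log2 fold change was 0.62 for the 93 and 0.25 for all gene models with 20 CPM or more at the 8-cell stage, whose counts were higher.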

Other observations

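Of the 171 gene models that flank one of the 93, 5 gained at least as many CPM between the 8- and the 16-cell stage as the neighbouring gene model lost. The closest in position were gene model 181075, which gained 183 CPM at a distance of 378 bases from gene model 135735 (a fall of 34.4 CPM), and gene model 156898, which gained 55.1 CPM at 571 bases from gene model 224032 (a fall of 40.5 CPM). These were singled out after their values were seen, and whether reads of one gene model were assigned to the other was not tested.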
